A study of Homo sapiens with 72 samples.

Results

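The integrated stress response was followed through 10 genes: ATF4 and 9 of its reported targets (DDIT3, CHAC1, TRIB3, ASNS, SESN2, DDIT4, PPP1R15A, PSAT1 and SLC7A11). They were taken by gene symbol from a deposited table of 19324 genes, and all 10 were among the 15470 genes with enough counts to be tested. In this response, stress kinases phosphorylate the translation factor eIF2, which lowers general protein synthesis and raises translation of ATF4 messenger RNA. The transcription factor ATF4 then switches on genes of amino acid supply and redox balance, a second wave of regulators, and PPP1R15A, which reverses the phosphorylation of eIF2. Irradiation with ultraviolet light (UV) is a known trigger of eIF2 phosphorylation in cultured cells. The measurements here are of RNA only.

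The libraries hold poly(A) RNA of HEK293 Flp-In T-REx cells, an adenovirus-transformed human embryonic kidney line with a recombination site for inserting transgenes. The 4 lines were CSB_KO, which lacks the transcription-coupled repair factor CSB (gene ERCC6), STK19_KO1 and STK19_KO2, which are 2 knockouts of STK19, a protein also assigned to that pathway, and the unedited parent WT. Each line was sampled in 6 conditions with 3 libraries each: untreated (0 h), 3 h after UV, and irradiated cells at 4 h and 20 h, either with 3 µM of the ATR inhibitor VE-821 (ATRi) or with its solvent DMSO. ATR is a kinase that senses stalled replication forks, and the study asked how blocking it alters transcription after UV. The labels give the later times in one place as hours since UV and in another as hours of treatment, and no UV dose is given in the sources used here. Cells kept as long without UV were not analysed here, with or without drug, so a change against 0 h cannot be told apart from time in culture or solvent. CSB_KO is a single line, and WT is the only unedited line, so a trait of a clone cannot be told apart from the knockout. In bulk RNA, a change in the number of cells of a kind and a change in RNA per cell cannot be told apart either.

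Library sizes ran from 36.5 M to 212.9 M counts (M for mega) and the median was 56.3 M. The smallest count of any member in any library was 57, for CHAC1. ERCC6, the gene targeted in CSB_KO, averaged 6.97 ± 0.61 CPM (counts per M counts of the library) in CSB_KO and 23.5 ± 0.47 CPM in WT at 0 h (SD, n = 3 each). STK19 averaged 17.5 ± 0.59 CPM in STK19_KO1, 17.1 ± 0.86 CPM in STK19_KO2 and 19.0 ± 1.07 CPM in WT at 0 h, and the libraries of both knockouts overlap with those of WT. Of 8 markers of HEK293 cells, 7 had a median above 1 CPM, among them VIM, NEFL, KRT8 and KRT18, while none of 4 blood, 3 squamous and 4 fibroblast markers did. Of 3 kidney tubule markers only LRP2 did, with a median of 14.8 CPM, and UMOD was not analysed here. All 72 pairs of replicates differed by more than sampling noise, and 5 libraries lay apart from the other 2 of their group, with a chi-square per gene over 20 against both. In WT this was replicate 1 of the untreated, the 3 h and the 4 h DMSO group, and in STK19_KO1 replicate 3 at 3 h and replicate 1 at 4 h with ATRi, and counts of called members that move by over 1.5 times without them are given beside the results.

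ATF4 binds DNA with C/EBP proteins at composite elements, and many stress genes also carry cAMP response elements that ATF and CREB proteins bind. RefSeq promoter windows (GRCh38.p14, 250 bases before to 50 after a start site) were found for 9 of the 10 members, as 14 windows. They were searched on both strands for TGATGNAA, the composite element, and for TGACGTCA, the full cAMP response element, 2 strings that do not overlap each other. The composite element was found in windows of ASNS and CHAC1, and in 3.62% of the 35116 promoter windows of all genes. The full cAMP response element was found in a window of PPP1R15A, and in 1.85% of all windows. The 3 stretches of 80 bases that hold these matches are shown in the direction of transcription, with the matched letters in capitals. They are all the matches found in the windows of members. A match describes the letters only.
ASNS: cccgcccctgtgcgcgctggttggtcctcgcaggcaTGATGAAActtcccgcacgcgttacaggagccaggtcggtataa
CHAC1: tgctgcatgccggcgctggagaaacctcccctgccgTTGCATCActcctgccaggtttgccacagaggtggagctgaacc
PPP1R15A: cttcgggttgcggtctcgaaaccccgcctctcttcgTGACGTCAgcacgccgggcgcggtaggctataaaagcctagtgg
The ASNS stretch is chr7:97872433-97872512 on the minus strand, with the match starting 68 bases before the start site. The CHAC1 stretch is chr15:40953226-40953305 on the plus strand, where the element reads on the opposite strand and starts 209 bases before the start site. The PPP1R15A stretch is chr19:48872327-48872406 on the plus strand, with the match 58 bases before the start site. Start sites here are those of the RefSeq windows. By the deposited gene coordinates, all 3 stretches lie inside the gene.

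Levels per kilobase of exon, the scale on which genes can be set against each other, spanned a wide range in untreated WT cells. ATF4 stood highest at 178 ± 4.37 CPM per kilobase, followed by PSAT1 at 77.5 ± 5.21 (SD, n = 3). DDIT4 at 26.7 ± 1.98 and ASNS at 24.2 ± 1.61 CPM per kilobase came next and did not differ beyond their spread. SESN2 had 15.4 ± 1.69, and TRIB3 at 10.1 ± 1.98 and PPP1R15A at 8.77 ± 0.32 CPM per kilobase again lay within their spread of each other. DDIT3 at 5.89 ± 0.30, SLC7A11 at 3.65 ± 0.30 and CHAC1 at 1.13 ± 0.23 CPM per kilobase were the lowest, each apart from its neighbours. Between the lowest and the highest of the 24 group means, DDIT3 differed 10.4-fold, CHAC1 9.92-fold, SLC7A11 9.70-fold and PPP1R15A 7.10-fold. TRIB3 differed 5.03-fold, SESN2 3.94-fold, ASNS 3.81-fold and DDIT4 3.39-fold, whereas ATF4 and PSAT1 differed only 2.17-fold and 2.07-fold.

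**Figure D1:**
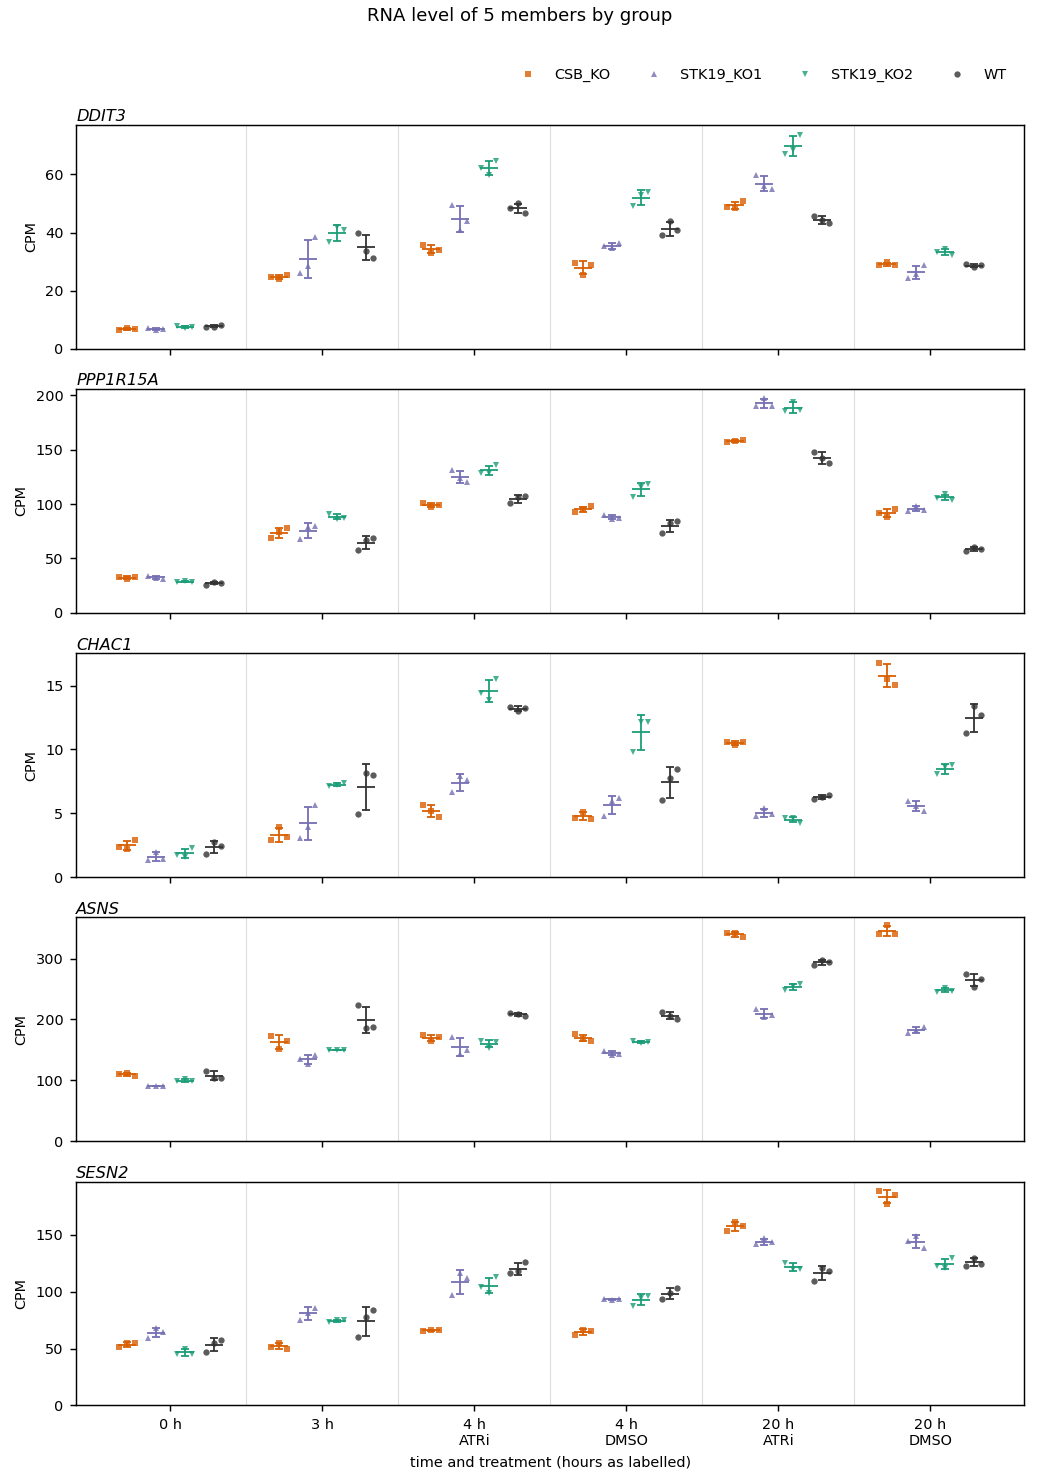
RNA level in CPM (vertical axes from 0) of DDIT3, PPP1R15A, CHAC1, ASNS and SESN2 in the 24 groups, with 1 point per library and bars for the mean and SD of 3 libraries. DDIT3 and PPP1R15A lie lowest at 0 h in every line, PPP1R15A is highest at 20 h with ATRi in every line, and CHAC1 and SESN2 are highest in CSB_KO at 20 h in DMSO.

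Relative to the other genes, most members were higher after UV than at 0 h in every line. Levels are scaled to each library, so a change in total RNA per cell would not show. At 3 h, 7 of 10 members were called higher and 2 lower in CSB_KO, 7 higher and 2 lower in STK19_KO1, 7 higher and 1 lower in STK19_KO2, and 8 higher and 2 lower in WT. A call is an adjusted p under 0.05 over all tested genes. Among all tested genes 32%, 29.9%, 29.1% and 33.6% were called higher in these lines in the same order, and 29.3%, 30.6%, 28.5% and 28.8% lower. The median log2 change of the 10 members was 0.32 in CSB_KO, 0.42 in STK19_KO1, 0.60 in STK19_KO2 and 0.67 in WT, beside 0.06, 0.03, 0.05 and 0.06 over all tested genes. DDIT3, PPP1R15A, CHAC1, ASNS, DDIT4 and ATF4 were called higher in all 4 lines, and SLC7A11 was called lower in all 4. All tested genes under 10 kb had medians of 0.40, 0.41, 0.36 and 0.40 at 3 h in the same order of lines. From these medians ATF4 stood at −0.15, −0.08, 0.18 and 0.08. In CSB_KO DDIT4 stood at −0.0033 and CHAC1 at 0.05, and they reached up to 0.46 and 1.59 in the other lines. PPP1R15A stood at 0.80 to 1.26 and DDIT3 at 1.47 to 2.06. All comparisons of a line with its own 0 h share the same 3 libraries at 0 h.

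At 4 h in DMSO, 8 members were higher and 1 lower in CSB_KO, 7 and 1 in STK19_KO1, 8 and 1 in STK19_KO2, and 7 and 1 in WT. The shares of all genes called higher were 33.6%, 27.9%, 31.6% and 35%, and those called lower 30.2%, 30%, 29.8% and 31.3%. At 4 h genes under 10 kb had medians of 0.46, 0.32, 0.42 and 0.48, and ATF4 stood at −0.09, 0.02, 0.26 and −0.14 from them. DDIT4 stood at 0.11 to 0.58, CHAC1 at 0.50 to 2.17, PPP1R15A at 1.08 to 1.56 and DDIT3 at 1.59 to 2.38. At 20 h in DMSO against 0 h, 8 members were higher and 1 lower in each of the 3 knockout lines, and 9 were higher and 0 lower in WT. The shares of all genes called higher were 38.3% in CSB_KO, 32.1% in STK19_KO1, 33.8% in STK19_KO2 and 30% in WT, and those called lower 40.5%, 37%, 37.8% and 25.4%. The members' median log2 change at 20 h was 0.97, 0.70, 0.96 and 1.13, beside −0.01, −0.02, −0.02 and 0.05 over all genes. The single member called lower in the knockout lines at 20 h was SLC7A11, the gene called higher in WT.

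**Figure D2:**
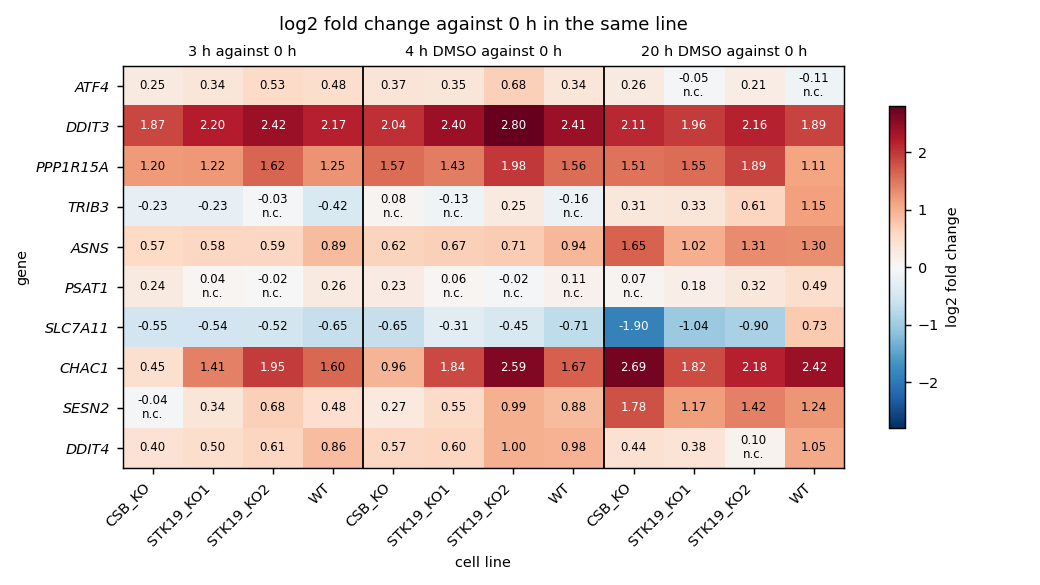
Log2 fold change of the 10 members (rows) against 0 h of the same line at 3 h, 4 h in DMSO and 20 h in DMSO (3 blocks of columns, 1 column per line), with red for higher and blue for lower and "n.c." where the adjusted p was not under 0.05. DDIT3 exceeds 1.8 in all 12 columns, and SLC7A11 is blue in every column except WT at 20 h.

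ATF4 itself (chr22:39519695-39522683, plus strand) is the transcription factor at the head of the group and is controlled largely at translation. In WT its RNA stood at 443, 461 and 442 CPM at 0 h, 683, 594 and 604 CPM at 3 h, 548, 575 and 581 CPM at 4 h in DMSO, and 420.4, 417 and 409 CPM at 20 h in DMSO. The early libraries were all above those at 0 h, and the late ones all below, although the late difference missed the threshold (adjusted p = 0.056). At 3 h the log2 change was 0.25 ± 0.05 in CSB_KO, 0.34 ± 0.05 in STK19_KO1, 0.53 ± 0.05 in STK19_KO2 and 0.48 ± 0.05 in WT (± standard error). At 4 h in DMSO it was highest in STK19_KO2, at 0.68 ± 0.05, and lay between 0.34 and 0.37 in the other lines. At 20 h ATF4 was called higher in CSB_KO (0.26 ± 0.05) and STK19_KO2 (0.21 ± 0.05). In STK19_KO1 it averaged 323 ± 8.43 CPM at 20 h and 334 ± 4.63 CPM at 0 h. The CSB_KO value depends on scaling: with total counts in place of TMM it was −0.05 (adjusted p = 0.278). The reference annotation lists pseudogene copies of ATF4, ASNS and PSAT1 and antisense genes over DDIT4 and SLC7A11, and reads shared with these could not be separated here.

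DDIT3 (chr12:57516588-57521737, minus strand) encodes CHOP, a transcription factor of the late, death-promoting phase of the response. WT libraries held 7.53, 7.43 and 8.16 CPM at 0 h, 39.7, 33.8 and 31.3 CPM at 3 h, 39.0, 43.8 and 40.8 CPM at 4 h in DMSO, and 29.1, 28.0 and 28.7 CPM at 20 h in DMSO. Every irradiated library was above every untreated one, in this and in each of the other lines. Its log2 change at 3 h was 1.87 ± 0.09 in CSB_KO, 2.199 ± 0.09 in STK19_KO1, 2.42 ± 0.09 in STK19_KO2 and 2.17 ± 0.09 in WT. The largest value was 2.80 ± 0.09 in STK19_KO2 at 4 h (adjusted p = 6.38e-35). At 20 h the changes lay close together, from 1.89 ± 0.09 in WT to 2.16 ± 0.09 in STK19_KO2, and neither CSB_KO nor the STK19 lines were called different from WT (adjusted p = 0.112 and 0.17 for the differences).

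TRIB3, a pseudokinase that binds ATF4 and dampens its activity, was called higher at 3 h in none of the lines. In WT it had 27.0, 39.0 and 38.5 CPM at 0 h, 20.6, 28.1 and 29.3 CPM at 3 h, 27.6, 31.7 and 34.5 CPM at 4 h in DMSO, and 74.7, 82.8 and 74.5 CPM at 20 h in DMSO. The libraries at 0 h, 3 h and 4 h overlap, and those at 20 h stand clear above them. At 3 h TRIB3 was called lower in WT (−0.42 ± 0.09), and by smaller amounts in CSB_KO (−0.23 ± 0.09) and STK19_KO1 (−0.23 ± 0.09). The CSB_KO call was lost when any library of its 2 groups except replicate 2 at 3 h was left out (adjusted p up to 0.125). In STK19_KO1 it was lost without replicate 1 or 3 at 0 h or replicate 1 or 2 at 3 h (up to 0.165), with RLE scaling (0.0503) and with no filter on low counts (0.0931). At 4 h in DMSO it was called higher in STK19_KO2, with 27.8, 32.4 and 32.4 CPM, against 25.2, 25.2 and 27.3 CPM at 0 h (0.25 ± 0.09, adjusted p = 0.0143). That call was lost with total counts only (0.20, adjusted p = 0.0616) and without replicate 2 or 3 at 4 h (0.21, adjusted p up to 0.0666). At 20 h TRIB3 was higher in all lines, by 0.31 ± 0.09 in CSB_KO, 0.33 ± 0.09 in STK19_KO1, 0.61 ± 0.09 in STK19_KO2 and 1.15 ± 0.09 in WT. With total counts only, the CSB_KO value at 20 h was 0.0014 (adjusted p = 0.991). The rise was smaller than in WT by 0.84 ± 0.13 in CSB_KO (adjusted p = 4.38e-08) and by 0.68 ± 0.11 in the mean of the STK19 lines (adjusted p = 3.34e-07).

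PPP1R15A (GADD34) is the regulatory subunit that directs protein phosphatase to eIF2 and so ends the response. Its RNA stood at 26.0, 28.0 and 27.4 CPM at 0 h, 57.8, 67.1 and 69.0 CPM at 3 h, 73.2, 82.3 and 84.1 CPM at 4 h in DMSO, and 56.9, 60.7 and 58.4 CPM at 20 h in DMSO in WT. All irradiated libraries were above the untreated ones. At 3 h the log2 changes ran from 1.198 ± 0.05 in CSB_KO to 1.62 ± 0.05 in STK19_KO2, with 1.253 ± 0.06 in WT. At 20 h they were 1.51 ± 0.05 in CSB_KO, 1.55 ± 0.06 in STK19_KO1, 1.89 ± 0.06 in STK19_KO2 and 1.11 ± 0.06 in WT. The late rise exceeded that of WT by 0.40 ± 0.08 in CSB_KO (adjusted p = 7.44e-06) and by 0.61 ± 0.07 in the STK19 lines (adjusted p = 1.56e-11). The CSB_KO excess fell to 0.03 (adjusted p = 0.776) with total counts only. The median of this CSB_KO difference over all genes under 10 kb was 0.50, and PPP1R15A stood at −0.11 from it. For the STK19 lines that median was 0.12, and PPP1R15A stood 0.48 above it.

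Among the genes of amino acid supply, ASNS (asparagine synthetase) was higher at every time in every line. WT had 116, 104 and 104 CPM at 0 h, 224, 187 and 188 CPM at 3 h, 212, 205 and 201 CPM at 4 h in DMSO, and 274, 253 and 267 CPM at 20 h in DMSO. No irradiated library overlapped with an untreated one, and the level was highest at 20 h. The log2 change at 3 h was 0.57 ± 0.05 in CSB_KO, 0.58 ± 0.05 in STK19_KO1, 0.59 ± 0.05 in STK19_KO2 and 0.89 ± 0.05 in WT. Both knockout types were below WT in this early rise, by −0.32 ± 0.07 for CSB_KO (adjusted p = 0.0011) and −0.30 ± 0.06 for the STK19 lines (adjusted p = 1.71e-04). For the STK19 lines this difference shrank to −0.14 (adjusted p = 0.0541) with total counts only. At 20 h CSB_KO was above WT instead, at 1.65 ± 0.05 against 1.297 ± 0.05, a difference of 0.35 ± 0.07 (adjusted p = 1.9e-05) that became −0.02 with total counts only.

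PSAT1, which makes phosphoserine on the route to serine, moved least of the target genes. In WT it had 181, 158 and 169 CPM at 0 h, 237, 186 and 187 CPM at 3 h, 198, 180 and 172 CPM at 4 h in DMSO, and 248, 232 and 236 CPM at 20 h in DMSO. Only the 3 h and 20 h libraries lie clear of those at 0 h. It was called higher at 3 h in CSB_KO (0.24 ± 0.05) and WT (0.26 ± 0.05; 0.17 without the libraries that lay apart), and at 4 h in CSB_KO (0.23 ± 0.05). With total counts only, the WT value at 3 h was 0.05 (adjusted p = 0.386) and the CSB_KO value at 4 h was 0.10 (adjusted p = 0.0942). At 20 h it was higher in STK19_KO1 (0.18 ± 0.05), STK19_KO2 (0.32 ± 0.05) and WT (0.49 ± 0.05). In CSB_KO it averaged 154 ± 4.86 CPM at 20 h and 146 ± 3.51 CPM at 0 h.

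SLC7A11 (chr4:138164097-138242349, minus strand) encodes xCT, the transporter that imports cystine for glutathione synthesis, and separated the lines more than any other member at 20 h. WT had 38.3, 32.7 and 34.5 CPM at 0 h, 25.5, 22.1 and 19.9 CPM at 3 h, 25.7, 19.3 and 19.6 CPM at 4 h in DMSO, and 59.4, 56.3 and 59.7 CPM at 20 h in DMSO. CSB_KO had 26.1, 24.2 and 23.3 CPM at 0 h, 17.8, 17.6 and 15.05 CPM at 3 h, 16.3, 15.8 and 14.7 CPM at 4 h, and 5.88, 6.63 and 7.15 CPM at 20 h in DMSO. In WT the libraries dipped at 3 h and 4 h and lay above the untreated level at 20 h, whereas in CSB_KO they were lowest at 20 h. At 20 h in DMSO, STK19_KO1 had 7.23, 6.26 and 6.97 CPM, against 14.5, 13.3 and 14.6 CPM at 0 h. STK19_KO2 had 10.8, 10.4 and 10.6 CPM at 20 h, against 19.9, 20.4 and 18.9 CPM at 0 h. No knockout library at 20 h overlapped with those of its own line at 0 h. The log2 change at 20 h was −1.90 ± 0.10 in CSB_KO, −1.04 ± 0.09 in STK19_KO1, −0.90 ± 0.09 in STK19_KO2 and 0.73 ± 0.08 in WT. Set against WT, the change was lower by −2.64 ± 0.13 in CSB_KO (adjusted p = 7.79e-26) and by −1.70 ± 0.11 in the STK19 lines (adjusted p = 2.52e-20). At 3 h the falls lay between −0.65 ± 0.09 in WT and −0.52 ± 0.09 in STK19_KO2, and neither difference from WT was called (adjusted p = 0.675 and 0.485).

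**Figure D3:**
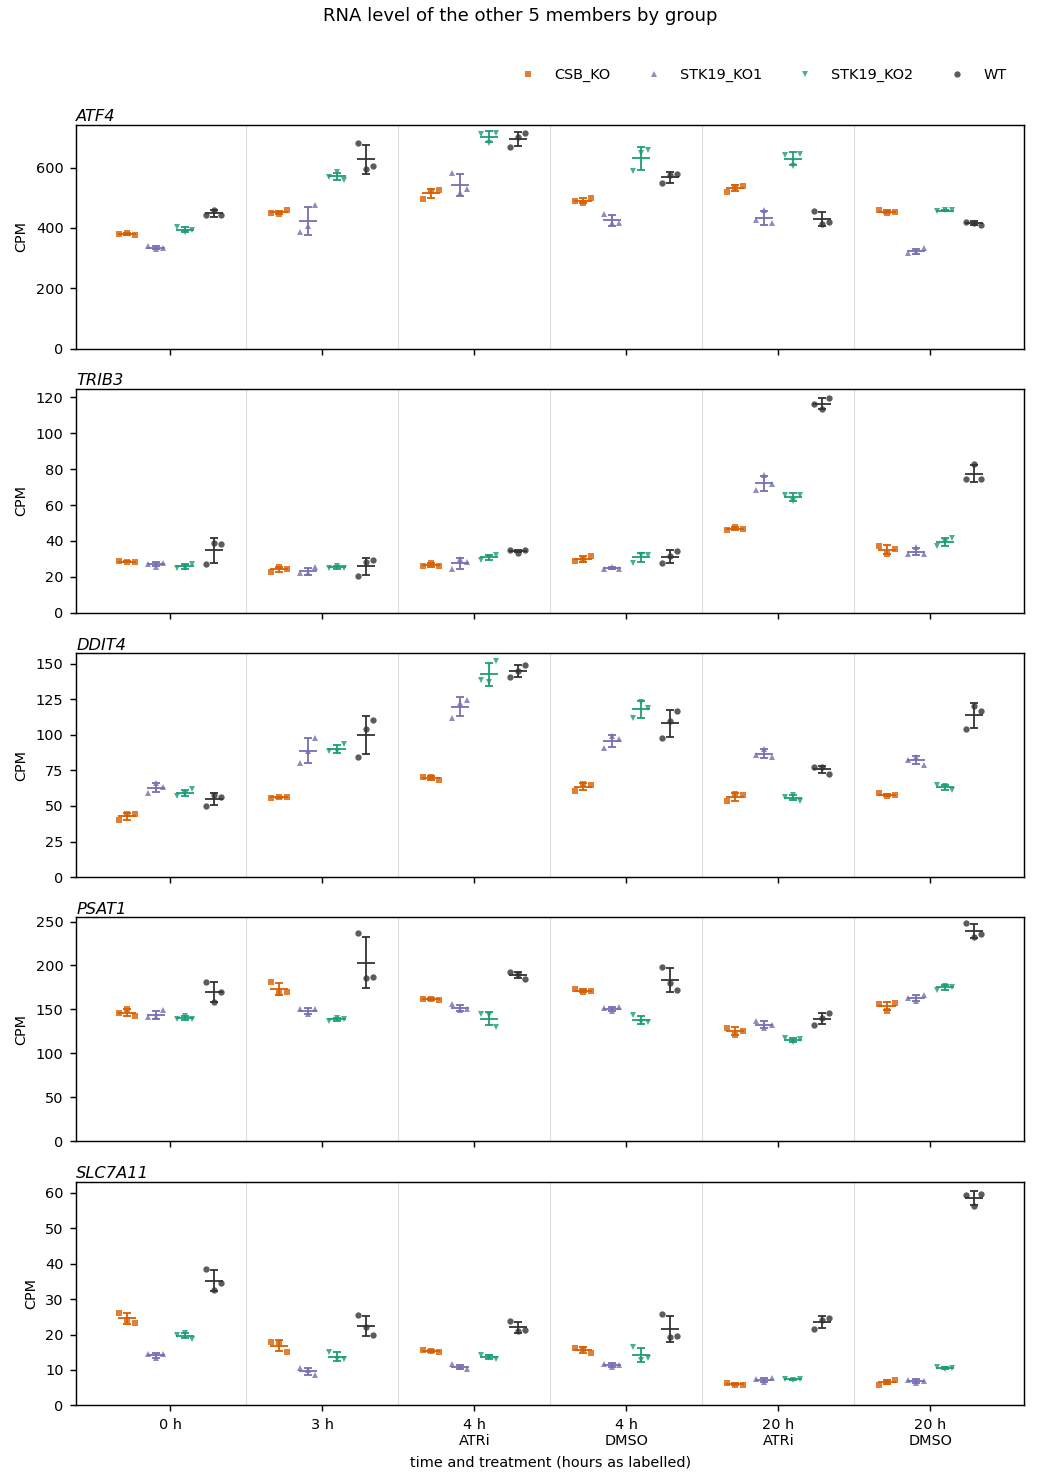
RNA level in CPM (vertical axes from 0) of ATF4, TRIB3, DDIT4, PSAT1 and SLC7A11 in the 24 groups, with 1 point per library and bars for the mean and SD of 3 libraries. SLC7A11 at 20 h in DMSO lies at 56.3 to 59.7 CPM in WT and under 11 CPM in the 3 knockout lines, and TRIB3 is highest in WT at 20 h with ATRi.

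CHAC1 (chr15:40952962-40956512, plus strand), an enzyme that breaks down glutathione, had the largest estimated late rise of the members in CSB_KO and WT. WT libraries held 1.83, 2.75 and 2.397 CPM at 0 h, 4.94, 8.19 and 8.02 CPM at 3 h, 6.05, 7.76 and 8.46 CPM at 4 h in DMSO, and 11.3, 13.4 and 12.7 CPM at 20 h in DMSO. CSB_KO libraries held 2.35, 2.21 and 2.91 CPM at 0 h, 2.92, 3.94 and 3.11 CPM at 3 h, 4.597, 5.12 and 4.59 CPM at 4 h, and 16.8, 15.5 and 15.1 CPM at 20 h in DMSO. In CSB_KO the 3 h libraries barely cleared those at 0 h, while at 20 h they were above the WT ones. The log2 change at 3 h was 0.45 ± 0.16 in CSB_KO (adjusted p = 0.0141), 1.41 ± 0.17 in STK19_KO1, 1.95 ± 0.16 in STK19_KO2 and 1.60 ± 0.16 in WT. The CSB_KO call was lost without replicate 2 at 0 h (0.36) or replicate 2 at 3 h (0.31, adjusted p = 0.151), and with total counts only (0.33, adjusted p = 0.0795). CSB_KO fell short of WT by −1.15 ± 0.22 (adjusted p = 1.70e-04), and the STK19 lines were not called different from WT (adjusted p = 0.824). At 20 h the changes were 2.69 ± 0.15 in CSB_KO, 1.82 ± 0.17 in STK19_KO1, 2.18 ± 0.16 in STK19_KO2 and 2.42 ± 0.15 in WT, and in STK19_KO2 the rises of CHAC1 and DDIT3 lay within their standard errors of each other.

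SESN2 and DDIT4 (REDD1) both restrain the growth kinase complex mTORC1. SESN2 in WT had 46.7, 55.2 and 57.9 CPM at 0 h, 59.9, 78.1 and 84.2 CPM at 3 h, 93.1, 98.4 and 103 CPM at 4 h in DMSO, and 123, 129.7 and 125 CPM at 20 h in DMSO. In CSB_KO it had 51.3, 54.6 and 54.5 CPM at 0 h, 51.4, 55.1 and 49.7 CPM at 3 h, 61.7, 66.1 and 65.5 CPM at 4 h, and 189, 177 and 185 CPM at 20 h in DMSO. The CSB_KO libraries at 3 h overlap with those at 0 h, and at 20 h they are the highest of all groups. At 3 h SESN2 was called higher in STK19_KO1 (0.34 ± 0.07), STK19_KO2 (0.68 ± 0.07) and WT (0.48 ± 0.07), and the change in CSB_KO was lower than in WT by −0.51 ± 0.10 (adjusted p = 2.27e-04). At 20 h it was 1.78 ± 0.07 in CSB_KO, 1.17 ± 0.07 in STK19_KO1, 1.42 ± 0.07 in STK19_KO2 and 1.24 ± 0.07 in WT. The late excess of CSB_KO over WT, 0.54 ± 0.10 (adjusted p = 4.11e-06), was 0.17 (adjusted p = 0.159) with total counts only.

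DDIT4 in WT had 50.2, 57.8 and 56.6 CPM at 0 h, 84.6, 104 and 111 CPM at 3 h, 97.7, 109.9 and 117 CPM at 4 h in DMSO, and 104, 120.5 and 117 CPM at 20 h in DMSO. The WT libraries stayed on a high plateau from 3 h onward. At 3 h the log2 change was 0.40 ± 0.07 in CSB_KO, 0.50 ± 0.07 in STK19_KO1, 0.61 ± 0.07 in STK19_KO2 and 0.86 ± 0.07 in WT. By 20 h it was 0.44 ± 0.07 in CSB_KO, 0.38 ± 0.07 in STK19_KO1 and 1.05 ± 0.07 in WT, and STK19_KO2 averaged 63.3 ± 1.72 CPM at 20 h and 59.2 ± 2.26 CPM at 0 h. With total counts only, the CSB_KO value at 20 h was 0.13 (adjusted p = 0.0833). The late change was smaller than in WT by −0.62 ± 0.10 in CSB_KO (adjusted p = 8.71e-08) and by −0.81 ± 0.08 in the STK19 lines (adjusted p = 1.05e-12).

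Between 4 h and 20 h in DMSO members were called in both directions, as were all tested genes. In CSB_KO 4 were higher and 3 lower at 20 h, in STK19_KO1 4 and 4, in STK19_KO2 4 and 5, and in WT 6 and 3. Among all genes, 34.6%, 32.3%, 31.6% and 34.1% were higher and 37.2%, 33.4%, 34.9% and 35.5% lower, and the counts in CSB_KO and STK19_KO1 lie near these shares. ASNS, SESN2 and TRIB3 were higher at 20 h than at 4 h in all 4 lines. For TRIB3 in CSB_KO this call was lost with total counts only (0.05, adjusted p = 0.652) and without replicate 1 or 2 at 4 h or replicate 1 at 20 h (0.20 to 0.22, adjusted p up to 0.0747). ASNS changed by 1.03 ± 0.05 in CSB_KO, 0.34 ± 0.05 in STK19_KO1, 0.60 ± 0.05 in STK19_KO2 and 0.36 ± 0.05 in WT. ATF4 was lower in all 4 lines, by −0.40 to −0.46 in the STK19 lines and WT and by −0.11 ± 0.05 in CSB_KO, a call that was lost when any library of its 2 groups was left out (adjusted p up to 0.175), and with RLE scaling or DESeq2 (−0.03 each). DDIT3 was lower by −0.43 ± 0.08 in STK19_KO1, −0.64 ± 0.08 in STK19_KO2 and −0.53 ± 0.08 in WT, and averaged 29.1 ± 0.49 CPM at 20 h and 27.9 ± 2.27 CPM at 4 h in CSB_KO. CHAC1 was higher by 1.73 ± 0.15 in CSB_KO and 0.75 ± 0.14 in WT and lower by −0.41 ± 0.14 in STK19_KO2. SLC7A11 was higher in WT (1.44 ± 0.09) and lower in CSB_KO (−1.25 ± 0.10), STK19_KO1 (−0.73 ± 0.10) and STK19_KO2 (−0.45 ± 0.09).

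With ATR inhibition, the members called at 4 h were all higher, while those called at 20 h went in both directions. At 4 h, 1 member was called higher with ATRi in CSB_KO, 4 in STK19_KO1, 0 in STK19_KO2 and 5 in WT, and none was called lower in any line. Few genes moved in this comparison: 2.7%, 0.776%, 0.194% and 2.03% of all tested genes were called higher and 0.278%, 0.129%, 0.0259% and 0.627% lower. The members' median log2 change was 0.05 in CSB_KO, 0.27 in STK19_KO1, 0.17 in STK19_KO2 and 0.26 in WT, beside −0.0051, 0.0022, −0.0064 and −0.0042 over all tested genes. For STK19_KO2, where edgeR called 0 members, 6 had an unadjusted p under 0.05 and DESeq2 called 2. PPP1R15A had 131, 124 and 119.9 CPM with ATRi, against 89.9, 86.4 and 86.9 CPM with DMSO in STK19_KO1, and 101, 106 and 107 CPM with ATRi, against 73.2, 82.3 and 84.1 CPM with DMSO in WT. The groups did not overlap, with log2 changes of 0.51 ± 0.05 in STK19_KO1 and 0.39 ± 0.05 in WT. In WT CHAC1 had 13.4, 13.0 and 13.3 CPM with ATRi, against 6.05, 7.76 and 8.46 CPM with DMSO, a log2 change of 0.83 ± 0.14 (adjusted p = 7.77e-05). The remaining calls were ATF4 (0.35 in STK19_KO1, 0.29 in WT), DDIT4 (0.32 and 0.42 in the same lines), SESN2 in WT (0.29) and DDIT3 (0.29 in CSB_KO, 0.34 in STK19_KO1). DDIT3 in CSB_KO was lost without replicate 2 of DMSO or replicate 1 or 3 of ATRi (0.23 to 0.30, adjusted p up to 0.237). In STK19_KO1 it was lost without replicate 1 or 2 of DMSO or replicate 1 of ATRi (0.26 to 0.34, adjusted p up to 0.283), and when that line was fitted alone (adjusted p = 0.203). SESN2 in WT was lost without replicate 1 or 2 of DMSO or replicate 3 of ATRi (0.25 to 0.28, adjusted p up to 0.105). Fitted line by line, WT had 1 call (PPP1R15A), and without the 5 libraries that lay apart STK19_KO1 had 7 and STK19_KO2 had 6.

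**Figure D4:**
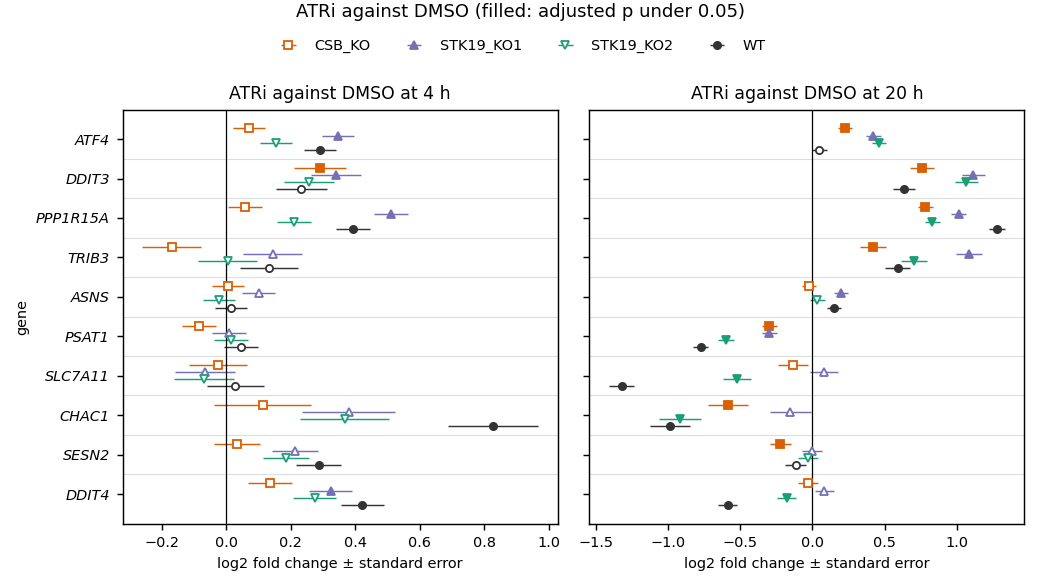
Log2 fold change of each member with ATRi against DMSO at 4 h (left) and 20 h (right), as point and standard error, with filled symbols for an adjusted p under 0.05. At 20 h DDIT3, PPP1R15A and TRIB3 lie right of 0 and PSAT1 left of 0 in all 4 lines, while SLC7A11 reaches −1.32 in WT.

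At 20 h, 4 members were higher with ATRi and 3 lower in CSB_KO, 5 and 1 in STK19_KO1, 4 and 4 in STK19_KO2, and 4 and 4 in WT. The shares of all genes called higher were 14.1%, 31.5%, 30.5% and 30.2%, and those called lower 17.5%, 30.1%, 27.7% and 33.7%. The members' median log2 change was −0.03 in CSB_KO, 0.14 in STK19_KO1, 0.00 in STK19_KO2 and −0.03 in WT, beside 0.01, 0.02, 0.03 and −0.03 over all tested genes. DDIT3, PPP1R15A and TRIB3 were higher in every line, and PSAT1 was lower in every line. PPP1R15A in WT had 148, 142 and 137 CPM with ATRi, against 56.9, 60.7 and 58.4 CPM with DMSO, with a log2 change of 1.28 ± 0.05 (adjusted p = 1.43e-28). Its rise was smaller in the knockouts, at 0.78 ± 0.05 in CSB_KO, 1.01 ± 0.05 in STK19_KO1 and 0.83 ± 0.05 in STK19_KO2, and below WT by −0.49 ± 0.07 (adjusted p = 1.21e-07) and by −0.36 ± 0.06 (adjusted p = 8.68e-06) for CSB_KO and the STK19 mean.

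DDIT3 at 20 h had 67.2, 68.6 and 73.7 CPM with ATRi, against 33.3, 34.4 and 32.3 CPM with DMSO in STK19_KO2, the highest level of any group. Its log2 change was 0.76 ± 0.08 in CSB_KO, 1.11 ± 0.08 in STK19_KO1, 1.07 ± 0.08 in STK19_KO2 and 0.63 ± 0.08 in WT, larger in the STK19 lines than in WT by 0.46 ± 0.10 (adjusted p = 1.08e-04). TRIB3 had 116, 114 and 119.6 CPM with ATRi, against 74.7, 82.8 and 74.5 CPM with DMSO in WT, and its log2 change ran from 0.42 ± 0.09 in CSB_KO to 1.09 ± 0.09 in STK19_KO1. In each of these comparisons the ATRi libraries were all above the DMSO ones. ATF4 was higher with ATRi in CSB_KO (0.23 ± 0.05), STK19_KO1 (0.42 ± 0.05) and STK19_KO2 (0.46 ± 0.05), and averaged 430.1 ± 22.3 CPM with ATRi and 416 ± 5.86 CPM with DMSO in WT.

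Of the metabolic members, PSAT1 was called lower with ATRi in 4 lines, CHAC1 in 3 and SLC7A11 in 2, and ASNS was called higher in 2. SLC7A11 in WT had 21.5, 24.03 and 24.7 CPM with ATRi, against 59.4, 56.3 and 59.7 CPM with DMSO, a log2 change of −1.32 ± 0.09 (adjusted p = 4.63e-20). It also fell in STK19_KO2 (−0.52 ± 0.10), but averaged 6.03 ± 0.37 CPM with ATRi and 6.55 ± 0.63 CPM with DMSO in CSB_KO, and 7.25 ± 0.63 CPM with ATRi and 6.82 ± 0.50 CPM with DMSO in STK19_KO1. The change in CSB_KO was above that in WT by 1.19 ± 0.14 (adjusted p = 7.58e-11), and that in the STK19 lines by 1.10 ± 0.11 (adjusted p = 3.45e-12). PSAT1 fell to 133, 139.9 and 146 CPM with ATRi, against 248, 232 and 236 CPM with DMSO in WT (−0.77 ± 0.05), and by −0.60 ± 0.05 in STK19_KO2 and −0.30 ± 0.05 in CSB_KO and STK19_KO1. CHAC1 had 6.16, 6.29 and 6.46 CPM with ATRi, against 11.3, 13.4 and 12.7 CPM with DMSO in WT (−0.99 ± 0.14), and was lower too in CSB_KO (−0.59 ± 0.14) and STK19_KO2 (−0.91 ± 0.15). In STK19_KO1 it averaged 5.04 ± 0.32 CPM with ATRi and 5.57 ± 0.41 CPM with DMSO. ASNS was higher by 0.20 ± 0.05 in STK19_KO1 and 0.15 ± 0.05 in WT. The WT call was lost without replicate 2 of DMSO (0.11, adjusted p = 0.075) and with total counts only (0.04, adjusted p = 0.432). DDIT4 was lower in WT (−0.59 ± 0.07) and STK19_KO2 (−0.18 ± 0.07), and SESN2 was lower in CSB_KO (−0.22 ± 0.07). The STK19_KO2 call was lost without replicate 1 or 2 of DMSO or replicate 3 of ATRi (−0.17 to −0.15, adjusted p up to 0.0877), and with RLE scaling (−0.14, adjusted p = 0.0516). The SESN2 call was lost without replicate 1 of DMSO or of ATRi (−0.19, adjusted p up to 0.0533), and with total counts only (−0.18, adjusted p = 0.0569). SESN2 in WT averaged 116 ± 6.18 CPM with ATRi and 126 ± 3.58 CPM with DMSO, and the difference between CSB_KO and WT was not called (adjusted p = 0.393).

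Before irradiation the knockout lines already differed from WT in several members. At 0 h, 1 member was higher and 5 lower in CSB_KO, 3 higher and 6 lower in STK19_KO1, and 0 higher and 5 lower in STK19_KO2. Among all tested genes 19.1%, 29.5% and 26.6% were called higher, and 15.7%, 19.2% and 20.7% lower. These 3 comparisons share the WT libraries. For STK19_KO2, 0 members were called higher by edgeR and 6 of the 10 had an unadjusted p under 0.05 in either direction. SLC7A11 gave the largest differences, with 26.1, 24.2 and 23.3 CPM in CSB_KO, 14.5, 13.3 and 14.6 CPM in STK19_KO1 and 19.9, 20.4 and 18.9 CPM in STK19_KO2, against 38.3, 32.7 and 34.5 CPM in WT. All knockout libraries were below all WT ones, with log2 differences of −0.52 ± 0.09, −1.31 ± 0.09 and −0.84 ± 0.09. ATF4 (−0.24, −0.42 and −0.18 in the same order), PSAT1 (−0.21, −0.24 and −0.27) and TRIB3 (−0.30, −0.37 and −0.43) were lower in all 3 lines. The TRIB3 libraries overlap with WT, where replicate 1 had 27.0 CPM and the other 2 had 39.0 and 38.5 CPM. Its CSB_KO call was lost without WT replicate 2 or 3 (−0.22 to −0.21, adjusted p up to 0.0886). PPP1R15A was higher in CSB_KO (0.25 ± 0.06) and STK19_KO1 (0.26 ± 0.06). ASNS (−0.25 ± 0.05) and CHAC1 (−0.56 ± 0.18) were lower in STK19_KO1, where SESN2 (0.26 ± 0.07) and DDIT4 (0.19 ± 0.07) were higher. DDIT4 was lower in CSB_KO (−0.36 ± 0.07) and SESN2 lower in STK19_KO2 (−0.20 ± 0.07). The CHAC1 call was lost without WT replicate 2 or STK19_KO1 replicate 1 (−0.47 to −0.44, adjusted p up to 0.0626). The SESN2 call was lost in STK19_KO1 without WT replicate 1 (0.18, adjusted p = 0.0522), and in STK19_KO2 without WT replicate 2 or 3 or STK19_KO2 replicate 1 or 3 (−0.19 to −0.13, adjusted p up to 0.187). The DDIT4 call in STK19_KO1 was lost without WT replicate 1 or STK19_KO1 replicate 2 or 3 (0.14 to 0.16, adjusted p up to 0.133), with total counts only (0.12, adjusted p = 0.138) and without the 5 libraries that lay apart (0.12, adjusted p = 0.0704).

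The differences between lines in their changes are gathered here by count. At 3 h the change in CSB_KO was called higher than that in WT for 0 members and lower for 5, where 1.48% of all genes were higher and 8.3% lower. The mean change of the STK19 lines was higher for 1 (TRIB3, 0.29 ± 0.11) and lower for 3 (DDIT4 most, −0.31 ± 0.08), with 10.1% and 17.1% of all genes. The count of 4 fell to 2 when replicate 1 of WT at 3 h was left out. At 20 h CSB_KO was higher than WT for 4 members, SESN2 most, and lower for 4, SLC7A11 most, with 30.9% and 36.3% of all genes. With total counts only, 4 of these 8 calls were made, all of them lower. The STK19 lines were higher for 2 and lower for 4, with 22.8% and 32.7%. For ATRi at 20 h CSB_KO was higher for 4 and lower for 2, with 24.7% and 26.9% of all genes, and the STK19 lines were higher for 7 and lower for 1, with 20.7% and 20.2%. For ATRi at 4 h CSB_KO was lower for CHAC1 (−0.71 ± 0.20) and PPP1R15A (−0.33 ± 0.07), with 2.33% of all genes higher and 0.873% lower. Without the 5 libraries that lay apart it was lower for 6 members, and with total counts only or DESeq2 for 4. The STK19 lines had 0 calls by edgeR and 0 by DESeq2, with 1 unadjusted p under 0.05, and 0.00646% of all genes higher and 0% lower. The CHAC1 call at 4 h was lost without any of the 12 libraries except 3, namely replicates 2 and 3 of DMSO in WT and replicate 1 of ATRi in CSB_KO (−0.74 to −0.58, adjusted p up to 0.132).

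The members lie in short to medium genes, from 2.12 kb for DDIT4 to 78.25 kb for SLC7A11, and change at 20 h varied with gene span over all tested genes. In CSB_KO the median log2 change at 20 h in DMSO was 0.73 for 3124 genes under 10 kb, 0.43 for 4256 genes of 10 to 30 kb, −0.25 for 4975 genes of 30 to 100 kb and −1.45 for 640 genes over 300 kb. In WT it was 0.21, 0.17, 0.04 and −1.62 for the same classes. Against the median of its own class, CHAC1 was higher by 1.96 in CSB_KO and 2.21 in WT, and DDIT3 by 1.38 and 1.68. ASNS stood 1.22 above its class in CSB_KO and 1.13 in WT, and SESN2 1.35 and 1.07. DDIT4 lay below its class in CSB_KO (−0.29) and above it in WT (0.84), and ATF4 lay below in both (−0.47 and −0.32). For SLC7A11 the difference from its class was −1.65 in CSB_KO, −0.94 for STK19_KO1, −0.81 for STK19_KO2 and 0.70 in WT. The change at 20 h in CSB_KO minus that in WT had a median of 0.50 for genes under 10 kb. It was 0.24 for 10 to 30 kb and −0.29 for 30 to 100 kb. Against these, ATF4 stood at −0.14, PPP1R15A at −0.11, ASNS at 0.11 and SESN2 at 0.30. DDIT4 stood at −1.12, TRIB3 at −0.55, PSAT1 at −0.14 and SLC7A11 at −2.35. The part of gene span in these changes, and in those at 3 h and 4 h, was not tested.

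**Figure D5:**
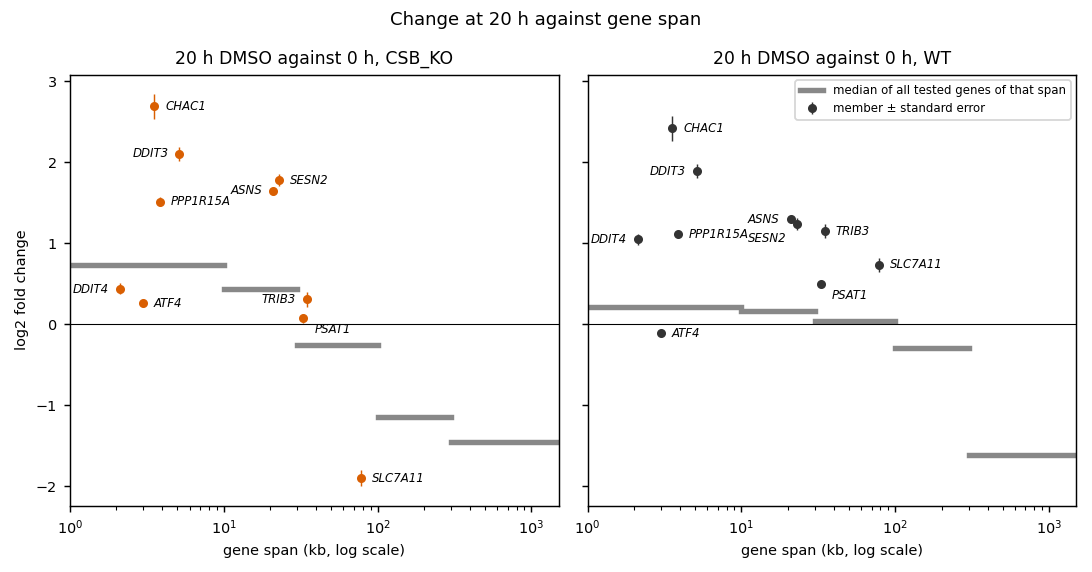
Log2 fold change at 20 h in DMSO against 0 h (vertical axis) by gene span in kilobases (log scale) for the 10 members in CSB_KO (left) and WT (right), with standard errors and grey bars for the median of all tested genes of each span class. In CSB_KO the grey bars fall from 0.73 for genes under 10 kb to −1.45 for those over 300 kb, and SLC7A11, ATF4 and DDIT4 lie below the bar of their class.

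Over the 24 group means, with each line centred on its own mean, pairs of members shared their patterns to different degrees. Pearson's r of log2 CPM was 0.96 for DDIT3 with PPP1R15A and 0.93 for ASNS with SESN2, and −0.74 for ASNS with SLC7A11. The median r with the other 9 members was highest for CHAC1 (0.71) and DDIT3 (0.69), and was −0.11 for PSAT1 and −0.47 for SLC7A11. These are descriptions, since groups of a line share its cells and conditions recur in all lines. The genes most like DDIT3 among all tested genes were GADD45B (0.98), CLK1 (0.97) and GZF1 (0.97), and those most like PPP1R15A were VEGFA (0.98), CLK1 (0.97) and GADD45B (0.97). ATF4 was closest to HES1, PMAIP1 and ADM (0.92, 0.92 and 0.91), and TRIB3 to ZNF568, MOK and NFXL1 (0.97 each). ASNS was closest to RHBDD2, MCOLN1 and CCDC74A (0.97 each), SESN2 to FBXL12 (0.96), CRY2 and PFKFB4 (0.95 each), and DDIT4 to FOXC1, MT1F and H2BC26 (0.87, 0.87 and 0.86). PSAT1 was closest to CMTM6, RAB4A and SELENOP (0.90, 0.89 and 0.87), SLC7A11 to IBTK, ZNF33B and PLEKHA8 (0.95, 0.94 and 0.94), and CHAC1 to H2AC13, H3C10 and ATOH7 (0.93, 0.93 and 0.91). Histone genes have near-identical copies, so those names are uncertain.

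Upstream of ATF4, RNA of the eIF2 kinases and their regulators was called in both directions. Of 20 genes for these kinases, eIF2 and its control, 10 were higher and 5 lower at 3 h in CSB_KO, 8 and 8 in STK19_KO1, 8 and 9 in STK19_KO2, and 11 and 4 in WT. Among all tested genes at 3 h, 32%, 29.9%, 29.1% and 33.6% were higher and 29.3%, 30.6%, 28.5% and 28.8% lower in the same order of lines. The list's median log2 change at 3 h was 0.12, −0.03, −0.01 and 0.22, beside 0.06, 0.03, 0.05 and 0.06 over all tested genes. EIF2AK3 (PERK, the kinase of the endoplasmic reticulum) was lower at 3 h in all 4 lines, with a mean log2 change of −1.13. It was higher at 20 h than at 4 h (1.21) and higher with ATRi at 20 h (0.79), again in all 4. EIF2AK4 (GCN2, the kinase that senses uncharged tRNA) was lower at 20 h in all 4 lines (mean −1.39). PPP1R15B, the constitutive counterpart of PPP1R15A, was higher at 3 h in all lines (0.49), and EIF2B2, a subunit of the factor that recycles eIF2, was higher at 3 h (0.72) and at 20 h (0.82).

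Among 11 partners of ATF4 and related regulators, ATF3 and FOS, which dimerise with bZIP factors, rose in all 4 lines at 3 h, 4 h and 20 h. ATF3 had mean log2 changes of 2.27, 2.53 and 2.49 at these times and 1.75 with ATRi at 20 h. FOS had 2.25, 2.59 and 1.92, and 1.09 with ATRi at 20 h. BTRC, a subunit of the ligase that degrades ATF4, was lower in all lines at 3 h (−1.82), 4 h (−2.07) and 20 h (−1.74).

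The wider targets were counted at 20 h in DMSO, where 38.3% of all tested genes were called higher in CSB_KO, 32.1% in STK19_KO1, 33.8% in STK19_KO2 and 30% in WT, and 40.5%, 37%, 37.8% and 25.4% lower. Of 10 amino acid transporter genes, 6 were higher and 2 lower at 20 h in CSB_KO, 5 and 3 in STK19_KO1, 7 and 1 in STK19_KO2, and 7 and 1 in WT. SLC3A2, the heavy chain that partners SLC7A11, was higher in all lines at 3 h (mean 0.71), 20 h (1.76) and with ATRi at 20 h (0.68). SLC7A5, another partner of that chain, was lower in all 3 knockouts at 0 h (mean −1.13). Of 10 enzymes of serine, glycine, proline and folate metabolism, 7 were higher and 1 lower at 20 h in CSB_KO, 5 and 1 in STK19_KO1, 6 and 2 in STK19_KO2, and 7 and 1 in WT. CTH, which makes cysteine, was higher at 20 h (1.28) and with ATRi at 20 h (0.77), and mitochondrial MTHFD2 was higher at 20 h (1.23), both in all lines. Among 13 aminoacyl-tRNA synthetases, which charge tRNA, 5 were higher and 8 lower at 20 h in CSB_KO, 4 and 6 in STK19_KO1, 4 and 5 in STK19_KO2, and 8 and 2 in WT, and in the STK19 lines these counts lie near the shares of all genes. SARS1 (0.70) was higher and IARS1 (−0.92) lower in all lines. Of 10 secreted and signalling targets, 6 were higher and 1 lower in CSB_KO, 5 and 2 in STK19_KO1, 4 and 0 in STK19_KO2, and 9 and 0 in WT at 20 h, with STC2 (0.97) and HERPUD1 (1.00) higher in all lines. GDF15, a secreted stress signal, was lower in the 3 knockouts at 0 h (mean −3.59).

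Each list's median log2 change at 20 h in DMSO stands beside the medians of all tested genes given above, −0.01 in CSB_KO, −0.02 in STK19_KO1, −0.02 in STK19_KO2 and 0.05 in WT. It was −0.14, −0.03, 0.06 and 0.00 for the kinase list in these lines, and 0.95, 0.31, 0.83 and 0.83 for the partners of ATF4. The amino acid transporters had 0.36, 0.37, 0.56 and 0.54, and the serine, glycine, proline and folate enzymes 0.48, 0.26, 0.25 and 0.63. The synthetases had −0.37, −0.08, 0.01 and 0.16, and the secreted and signalling targets 0.67, 0.45, 0.60 and 0.85.

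Neighbouring stress programmes were counted in the same way, to be read beside the same shares of all genes at 20 h in DMSO. The median log2 change at 20 h in CSB_KO, STK19_KO1, STK19_KO2 and WT was 0.40, 0.02, 0.23 and −0.11 for the other arms of the unfolded protein response. For p53 targets it was 0.54, 0.69, 0.58 and 0.66, and for NRF2 targets −0.13, 0.12, 0.26 and −0.03. Of 13 genes in the other arms of the unfolded protein response, 9 were higher and 3 lower at 20 h in CSB_KO, 6 and 4 in STK19_KO1, 8 and 4 in STK19_KO2, and 3 and 7 in WT. DNAJB9 (mean 1.00 over the 4 lines) and CRELD2 (0.72) were each called higher at 20 h in 3 lines. ATF6, a sensor of unfolded protein, was lower at 20 h in all lines (mean −1.40), and EDEM1 (−0.49) was called lower in 3. Of 16 p53 targets, 12 were higher and 4 lower at 20 h in CSB_KO, 14 and 0 in STK19_KO1, 12 and 1 in STK19_KO2, and 14 and 0 in WT, among them GADD45A (2.55). Of 12 targets of NRF2, the redox regulator that also acts on SLC7A11, 4 were higher and 6 lower in CSB_KO, 6 and 5 in STK19_KO1, 7 and 5 in STK19_KO2, and 5 and 6 in WT at 20 h. OSGIN1 (1.84) and NQO1 (0.78) were higher and ME1 (−1.33) lower in all lines. With ATRi at 20 h, 1, 2, 1 and 1 of the 12 were higher in CSB_KO, STK19_KO1, STK19_KO2 and WT, and 5, 8, 7 and 7 lower, GCLM (−0.96) in all lines. Among all tested genes 14.1%, 31.5%, 30.5% and 30.2% were higher with ATRi and 17.5%, 30.1%, 27.7% and 33.7% lower in the same order. The median log2 change of the 12 was −0.08, −0.35, −0.21 and −0.23, beside 0.01, 0.02, 0.03 and −0.03 over all tested genes.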

How the data were processed

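Poly(A) RNA sequencing covered 24 groups of 3 libraries (72 in all). The authors deposited expected counts per gene, estimated with RSEM after STAR alignment to GRCh38, per the submitters' processing notes, which also name deepTools 3.5.1. Versions of STAR and RSEM and the strand setting are not given in the sources used here. The expected counts were rounded to whole numbers, and genes passing edgeR's filter (minimum count 10, minimum total 15) were kept: 15470 of 19324, with 3854 removed. Of the 19324 genes, 572 have no symbol. All columns were mapped to samples.

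One edgeR 4.0.16 quasi-likelihood model (R 4.3.3, limma 3.58.1) with a mean for each of the 24 groups gave 27 comparisons of 2 groups and 8 differences of changes between lines, with TMM factors of 0.857 to 1.125. P-values were adjusted with the Benjamini-Hochberg method over all tested genes, and an adjusted p under 0.05 counts as a call. CPM use TMM-scaled library sizes. The sources do not say whether replicates came from separate cultures, so p-values measure the spread between these libraries, which may be technical. Each SD is taken over the 3 libraries of a group, of at least 36.5 M counts each. Standard errors of log2 changes come from the joint model of all 24 groups, so they do not follow the spread of a single group. For TRIB3 at 3 h they were equal after rounding in WT and CSB_KO. The SD of untreated TRIB3 was 6.79 CPM in WT and 0.27 CPM in CSB_KO. Where libraries lie apart, as in WT, the standard error may thus understate the spread of that group.

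The members and gene lists were chosen with earlier results of these data known. The text names the members, the targeted genes, for each difference between lines the largest in each direction, and for each member the 3 genes of most similar pattern. Per list and kind of comparison, up to 2 genes higher and 2 lower were picked. These had the largest mean change among those called alike in at least 3 lines. The text names some of them and leaves out others, such as OMA1 of the kinase list, lower at 20 h (mean −1.62). Alternatives were RLE scaling, total counts only, DESeq2 1.42.0, no filter on low counts, a fit per line, a replicate block, a block within each line, omission of the 5 libraries that lay apart, and omission of each library in turn, for which the trended dispersion of the full fit was kept. Same-numbered replicates were checked for pairing and did not meet the criterion. On counts simulated for the comparison of 20 h in DMSO with 0 h in WT (15350 genes), 49 of 50 genes changed 0.5-fold, 35 of 50 changed 1.25-fold, 47 of 50 changed 1.5-fold and 48 of 50 changed 2-fold were recovered, with 6 calls among 15150 unchanged genes. The simulated libraries were independent, with the trended dispersion and nearly all genes unchanged between these 2 groups. The simulation therefore does not cover scaling under widespread change, or libraries that lie apart. Figures were drawn with matplotlib 3.10.9.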

Additional observations from a re-analysis of the deposited data

Results flagged for a closer look

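The values below are log2 differences between the change in a knockout line and the same change in WT. Of 80 such differences (10 members in 8 contrasts), 39 passed the test of the difference itself, edgeR's quasi-likelihood test with an adjusted p under 0.05. The STK19 value is the mean of both lines, which can differ from each other. The 8 contrasts share the WT libraries in part.

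ATF4 differed at 3 h in CSB_KO (−0.24), at 20 h in CSB_KO (0.37) and the STK19 lines (0.19), and with ATRi at 20 h in CSB_KO (0.18) and the STK19 lines (0.39). At 20 h in DMSO its mean was 323 CPM in STK19_KO1 and 458 CPM in STK19_KO2, against 334 and 395 CPM at 0 h. The 3 h value was −0.15 (adjusted p = 0.0904) without the 5 libraries that lay apart. With total counts only, the 3 h value was −0.15 (adjusted p = 0.115) and the STK19 value at 20 h was 0.08 (adjusted p = 0.174). The CSB_KO value with ATRi was lost with RLE scaling (0.15, adjusted p = 0.0614), with DESeq2 (0.15, adjusted p = 0.0551) and without any 1 of 6 libraries (0.16 to 0.17, adjusted p up to 0.0791), namely replicate 1 of DMSO and 2 and 3 of ATRi in WT, and replicate 2 of DMSO and 2 and 3 of ATRi in CSB_KO. DDIT3 differed with ATRi at 20 h in the STK19 lines (0.46). TRIB3 differed in the STK19 lines at 3 h (0.29), at 20 h in CSB_KO (−0.84) and the STK19 lines (−0.68), and with ATRi at 20 h in the STK19 lines (0.30). The 3 h value was 0.16 (adjusted p = 0.306) without replicate 1 of WT at 3 h, and the ATRi value was 0.25 (adjusted p = 0.0753) without replicate 2 of WT in DMSO. PPP1R15A differed at 20 h in CSB_KO (0.40) and the STK19 lines (0.61), with ATRi at 4 h in CSB_KO (−0.33), and with ATRi at 20 h in CSB_KO (−0.49) and the STK19 lines (−0.36).

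ASNS differed at 3 h in CSB_KO (−0.32) and the STK19 lines (−0.30), at 20 h in CSB_KO (0.35) and with ATRi at 20 h in CSB_KO (−0.17). The ATRi value was −0.02 (adjusted p = 0.789) with total counts only. It was also lost without any 1 of 6 libraries (−0.18 to −0.14, adjusted p up to 0.126), namely replicate 2 of DMSO and 2 and 3 of ATRi in WT, and replicate 2 of DMSO and 1 and 3 of ATRi in CSB_KO. PSAT1 differed in the STK19 lines at 3 h (−0.25), at 20 h in CSB_KO (−0.42) and the STK19 lines (−0.25), and with ATRi at 20 h in CSB_KO (0.48) and the STK19 lines (0.33). Its 3 h value was −0.12 (adjusted p = 0.12) without replicate 1 of WT at 3 h and −0.08 (adjusted p = 0.368) with total counts only. SLC7A11 differed at 20 h in CSB_KO (−2.64) and the STK19 lines (−1.70), and with ATRi at 20 h in CSB_KO (1.19) and the STK19 lines (1.10).

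CHAC1 differed at 3 h in CSB_KO (−1.15), with ATRi at 4 h in CSB_KO (−0.71) and with ATRi at 20 h in the STK19 lines (0.45). The last of these was lost without any 1 of 5 libraries (0.40 to 0.45, adjusted p up to 0.0859), namely replicates 2 and 3 of DMSO and 1 and 2 of ATRi in WT, and replicate 3 of DMSO in STK19_KO1. SESN2 differed in CSB_KO at 3 h (−0.51) and 20 h (0.54). DDIT4 differed at 3 h in CSB_KO (−0.47) and the STK19 lines (−0.31), at 20 h in CSB_KO (−0.62) and the STK19 lines (−0.81), and with ATRi at 20 h in CSB_KO (0.56) and the STK19 lines (0.54). Its 3 h value in the STK19 lines was −0.15 (adjusted p = 0.192) with total counts only.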

How the results depend on the processing

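Of 258 counts of called members recomputed under 8 settings, 13 moved by over 1.5 times from the main count, and the cause was not tested. With ATRi at 4 h, WT had 1 call when each line was fitted alone (5 in the main fit) and STK19_KO1 had 7 without the 5 libraries that lay apart (4). STK19_KO2, with 0 calls, had 2 with RLE scaling, 4 with total counts only, 2 with DESeq2, 4 when fitted alone, 2 with a replicate block, 2 with a replicate block within each line and 6 without the 5 libraries. The difference between CSB_KO and WT had 2 calls, against 4 with total counts only, 4 with DESeq2 and 6 without the 5 libraries. At 20 h this difference had 4 calls with total counts only (8). With 1 library left out, calls ranged from 0 to 1 for ATRi at 4 h in CSB_KO, from 2 to 5 for the STK19 lines against WT at 3 h, and from 1 to 3 for CSB_KO against WT with ATRi at 4 h.

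Of 1778 recomputed values of the 237 called changes, 39 lost the call, 19 of them with total counts only, a scaling that shifted the median of all genes by −0.37 to 0.26. It turned the sign of 3 values at 20 h: ATF4 in CSB_KO (−0.0504), and ATF4 (−0.00564) and ASNS (−0.0215) in CSB_KO against WT. Leaving out single libraries cost 27 of the 237 a call at least once, and 194 kept it under every setting and every omission.

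Same-numbered replicates did not meet the criterion for pairing: in 0 of 27 comparisons was every correlation over 0.1 (range −0.07 to 0.26). Yet in 46 of 81 cases a library correlated best with its own number, where 27 would be expected with no pairing. The cases are 3 libraries in each of 27 comparisons, so a library can count several times. Some structure shared by replicate number may thus remain, and the main fit has no term for it. A replicate block changed 8 of 35 counts and a block within each line 4 of 24, with 1.01 to 3.0 times and 1.01 to 1.31 times as many genes called. CHAC1, at 57 counts in its lowest library, had the largest standard errors (0.14 to 0.18 between 2 groups), so small changes in it may go uncalled. The parts of depth and of spread between replicates in these errors were not tested.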
